A study of Homo sapiens with 12 samples.

Results

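The glutathione and NRF2 antioxidant genes described here are 10 of the 33694 human genes listed per library: GCLC, GCLM, MGST1, GPX1, GPX4, TXNRD1, SRXN1, NQO1, HMOX1 and SOD3. They were chosen by symbol for their roles, with earlier results of these data known, and each symbol matched 1 listed identifier. RNA was counted by 3′ tag sequencing, which reads transcripts near their polyadenylated end, in 2 human melanoma cell lines. A375 is a long-used melanoma line whose BRAF gene carries an activating mutation. A375-BIR is described in the labels as resistant to BRAF inhibition; how A375-BIR was derived, and whether it is a single clone, is not given in the sources used here. The groups were A375-BIR with the BRAF kinase inhibitor dabrafenib at 200 nM (3 libraries), A375-BIR with the solvent DMSO at 0.1% (3 libraries), A375 with dabrafenib at 200 nM (3 libraries) and A375 with DMSO at 0.1% (3 labelled, 1 used). Both treatments lasted 48 h, and all cells grew in RPMI medium with fetal serum.

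The files of A375 DMSO replicates 2 and 3 list mouse genes, so A375 with DMSO rests on 1 library here, with no spread of its own. Reads not uniquely placed made up 52.5% of all counts in that library's file, the highest share among the human-gene libraries. The name of that library's file also carries a different stamp from those of the other 9 human-gene libraries. The files of replicates 2 and 3, which list mouse genes, carry the same stamp as that library's file. Whether the stamp marks another run is not known here. In comparisons that use this library, the effect of group and that of whatever the stamp marks cannot be told apart. Gene counts ranged from 198690 to 1999840 per human-gene library. The limit that 3 counts set for a gene at 0 lay between 1.88 and 16.9 CPM, depending on the library. Mitochondrially encoded genes took 4.88% to 7.21% of counts in A375-BIR with dabrafenib, 4.63% to 5.49% in A375-BIR with DMSO, 10.7% to 15.1% in A375 with dabrafenib and 15.1% in the A375 DMSO library. The melanocyte lineage genes MITF and SOX10 had counts in every group. The 10 melanoma and melanocyte markers summed to 210 to 338 CPM in A375-BIR libraries and 2070 to 3491 CPM in A375 libraries, with MLANA at 0 counts in every group except A375 with dabrafenib, TYR at 0 in both A375-BIR groups, PMEL at 0 in A375-BIR with dabrafenib and TYRP1 at 0 in the A375 DMSO library. Markers of leukocytes, epithelium and endothelium summed to at most 2.54, 11.3 and 1.01 CPM in any library, with EPCAM, KRT5, VWF, CDH5 and CD3E at 0 throughout, and those of fibroblasts to 4.24 to 28.9 CPM.

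Cells keep reactive oxygen in check with glutathione, a cysteine-containing tripeptide, and with the thioredoxin system. The transcription factor NRF2, encoded by NFE2L2, is degraded through KEAP1 under calm conditions and on oxidative stress binds antioxidant response elements (ARE) together with a small MAF protein, which raises genes such as NQO1, GCLM and TXNRD1. BACH1 competes for the same elements and is the main repressor of HMOX1. In melanoma these systems bear on how cells tolerate the oxidative load of BRAF inhibition and on ferroptosis, a death by lipid peroxidation that GPX4 prevents.

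RefSeq promoter windows (GRCh38.p14, 250 bases before to 50 after an annotated gene start) were found for 9 of the 10 genes, 14 windows in all; HMOX1 had no entry. They were searched on both strands for the ARE core TGACNNNGC and for the AP-1 element TGANTCA, which share their first letters and can overlap. The ARE core was found in 4 of the 14 windows, of 3 genes (GCLM, TXNRD1 and MGST1), against 13.3% of all 35116 windows of that length. The AP-1 element was in 0 of the 14, against 7.71% of all windows. The windows with a match are shown because they belong to a gene of glutathione synthesis, to a thioredoxin reductase gene with a pair of starts and to MGST1, which had counts mainly in A375-BIR; SOD3 is shown because its counts lay mainly in A375. Each is written 5′ to 3′ on its gene's strand, with ARE core matches in capitals.
GCLM, chr1:93909381-93909680, minus strand: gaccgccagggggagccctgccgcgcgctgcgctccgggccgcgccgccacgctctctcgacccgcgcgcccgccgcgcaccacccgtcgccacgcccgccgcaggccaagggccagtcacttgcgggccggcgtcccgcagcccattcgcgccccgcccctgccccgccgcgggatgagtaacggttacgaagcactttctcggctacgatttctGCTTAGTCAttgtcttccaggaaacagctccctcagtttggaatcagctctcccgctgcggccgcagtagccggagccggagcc
TXNRD1, upstream start, chr12:104215529-104215828, plus strand: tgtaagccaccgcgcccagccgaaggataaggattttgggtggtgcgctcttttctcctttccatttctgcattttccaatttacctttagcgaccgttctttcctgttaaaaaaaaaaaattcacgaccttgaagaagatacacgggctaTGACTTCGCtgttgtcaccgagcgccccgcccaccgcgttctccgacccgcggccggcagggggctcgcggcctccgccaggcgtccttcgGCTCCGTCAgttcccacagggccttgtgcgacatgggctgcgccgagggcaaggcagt
TXNRD1, downstream start, chr12:104286782-104287081, plus strand: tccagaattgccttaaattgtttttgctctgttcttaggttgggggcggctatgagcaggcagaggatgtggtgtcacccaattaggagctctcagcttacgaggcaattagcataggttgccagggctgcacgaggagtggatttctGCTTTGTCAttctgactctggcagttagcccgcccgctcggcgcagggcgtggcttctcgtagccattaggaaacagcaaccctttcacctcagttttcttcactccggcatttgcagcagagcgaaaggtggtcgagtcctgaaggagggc
MGST1, chr12:16346865-16347164, plus strand: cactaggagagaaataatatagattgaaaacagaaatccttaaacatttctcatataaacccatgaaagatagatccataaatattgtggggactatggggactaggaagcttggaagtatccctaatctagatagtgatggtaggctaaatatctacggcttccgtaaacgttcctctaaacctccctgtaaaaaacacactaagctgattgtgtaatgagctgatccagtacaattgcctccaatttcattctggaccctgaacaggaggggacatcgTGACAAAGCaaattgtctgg
SOD3, chr4:24795323-24795622, plus strand: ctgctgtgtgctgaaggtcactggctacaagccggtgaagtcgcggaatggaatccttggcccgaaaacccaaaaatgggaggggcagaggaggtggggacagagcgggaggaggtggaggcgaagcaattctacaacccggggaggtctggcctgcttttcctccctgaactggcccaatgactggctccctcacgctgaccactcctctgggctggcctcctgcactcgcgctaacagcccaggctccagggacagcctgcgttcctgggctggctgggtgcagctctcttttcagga
The match in GCLM starts 34 bases before the gene start and lies on the opposite strand. Those in TXNRD1 start 99 and 8 bases before the upstream start and 102 bases before the downstream start. The match in MGST1 starts at base 31 of the transcript. These are matches of letters, not measured binding sites. Sequence more than 250 bases before a start was not searched, so a gene without a match here may hold the element elsewhere.

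Levels are given as counts per 1000000 (CPM) of a library's total after TMM scaling and are compared within a gene only. Values follow the order of replicates 1, 2 and 3. Changes are log2 ratios with a standard error (SE) from edgeR's quasi-likelihood test over all 10236 genes kept, with 0.05 as the limit on the Benjamini-Hochberg adjusted p for a call. All 10 members were kept, but by different routes: MGST1 passed the filter only in A375-BIR libraries, SRXN1 only in 2 A375 dabrafenib libraries, and SOD3 only in A375 libraries, so a difference in these was part of their being kept. In cell lines, as in any bulk sample, fewer expressing cells and less RNA per cell cannot be told apart.

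**Figure D1:**
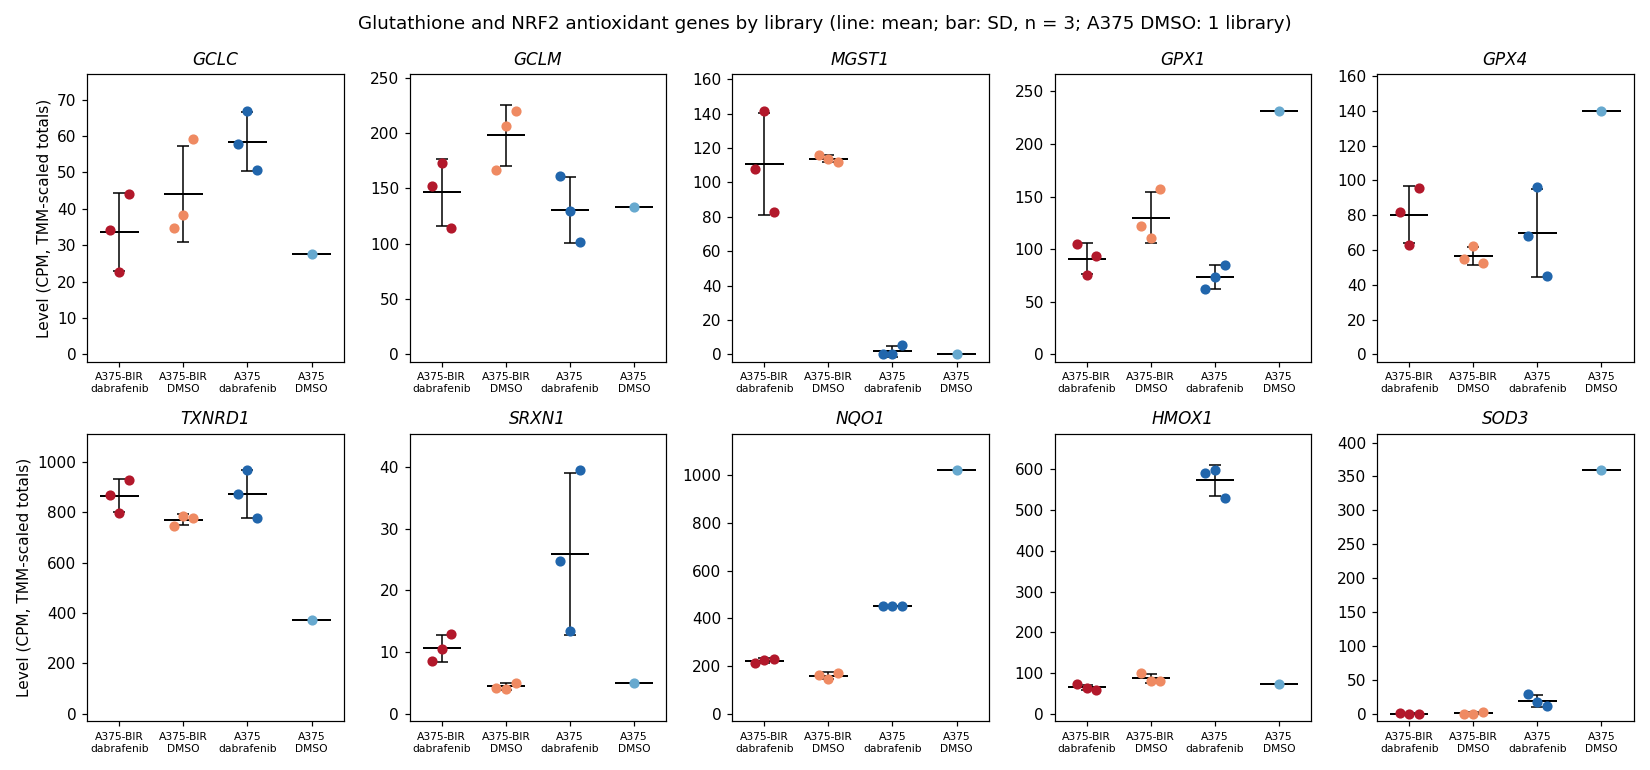
Level of each gene in every human-gene library (CPM, linear axes from 0, 1 panel per gene), with points for libraries, lines for group means and bars for the SD (n = 3; A375 with DMSO is 1 library). HMOX1 is high only in the 3 A375 dabrafenib libraries (530.3 to 598 CPM), MGST1 only in A375-BIR and SOD3 mainly in the A375 DMSO library.

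The 10 genes were first compared between dabrafenib and DMSO within each line. Comparing dabrafenib with DMSO in A375-BIR, edgeR called 0 of the 10, where it called 2.46% of all genes (1.36% higher, 1.1% lower), and DESeq2 called 0 as well. At an unadjusted p under 0.05 there were 6, against 14.2% of all genes, and the libraries of both groups did not overlap for 6, against 18% of all genes. In A375, dabrafenib and DMSO differed in 8 of 10 (4 higher, 4 lower), where 38.6% of all genes were called (17.9% higher, 20.7% lower). Between the lines in dabrafenib 5 of 10 were called (1 higher in A375-BIR, 4 lower), against 42.7% of all genes (22.6% higher, 20.2% lower). Between the lines in DMSO 7 were called (3 higher in A375-BIR, 4 lower), against 51.8% (25.1% higher, 26.7% lower). These calls include members that passed the filter in some groups only: SRXN1 and SOD3 in the A375 response, and MGST1 and SOD3 between the lines. A difference in these was part of their being kept, so their calls are no separate support. The groups did not overlap for 8 members in the A375 response, 6 between the lines in dabrafenib and 9 between them in DMSO, against 71.9%, 48.2% and 84.4% of all genes. The median log2 change of the 10 in the A375-BIR response, the A375 response, and between the lines in dabrafenib and in DMSO was -0.19, 0.57, -0.44 and 0.04. Over all genes tested it was 0.02, 0, 0.04 and 0.01. The first 2 medians of the members include fitted values that hold no fold, SOD3 in A375-BIR (1 and 2 counts) and MGST1 in A375 (1 and 0 counts). Without SOD3 the middle value in A375-BIR is that of MGST1 (-0.03), and without MGST1 that in A375 is that of GCLM (0.03). Without the mitochondrially encoded genes the counts called were the same, at 0, 8, 5 and 7.

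**Figure D2:**
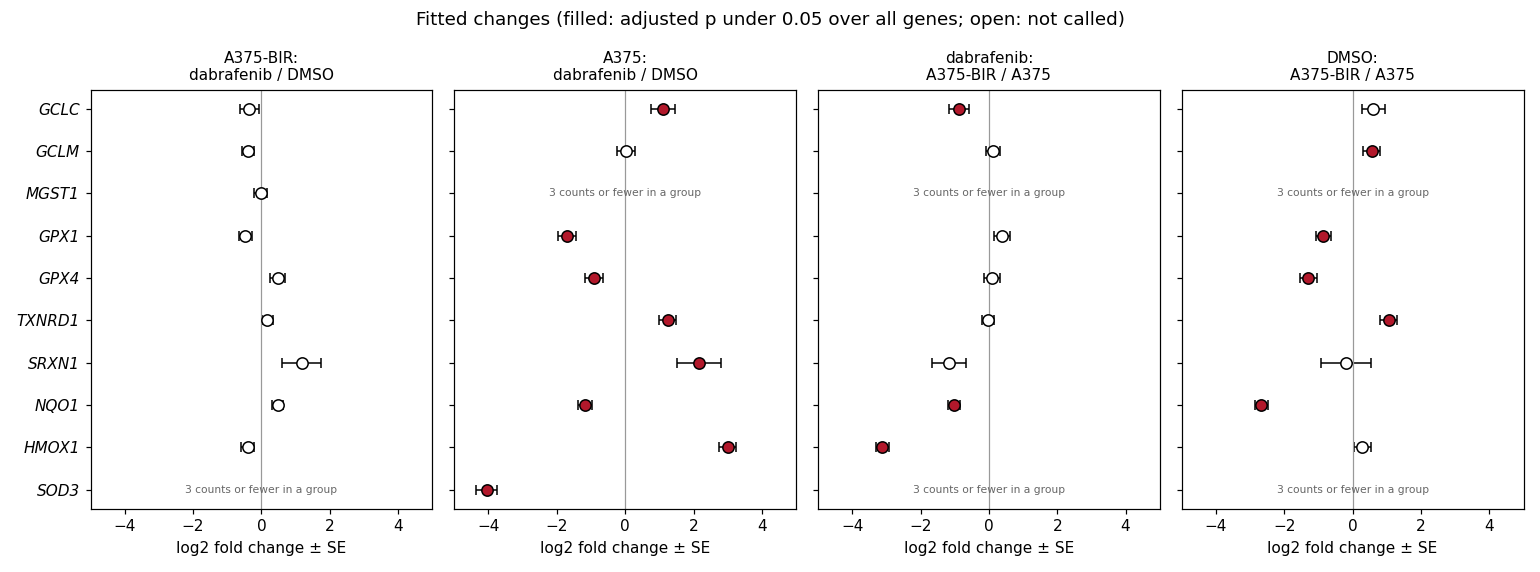
Fitted log2 change of each gene in the 4 comparisons of a pair of groups, with bars for the SE and filled points for adjusted p under 0.05 over all genes; no point is drawn where a group held 3 counts or fewer. No point is filled in the A375-BIR response, while in A375 GCLC, TXNRD1, SRXN1 and HMOX1 lie to the right of 0 and GPX1, GPX4, NQO1 and SOD3 to the left.

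Glutathione synthesis begins with glutamate-cysteine ligase, whose catalytic subunit is GCLC (chromosome 6, 53497341 to 53616970, GENCODE 29 on GRCh38) and whose modifier subunit, which raises its activity, is GCLM (chromosome 1, 93885205 to 93909456). GCLC stood at 34.3, 22.7 and 44.0 CPM in A375-BIR with dabrafenib and 34.7, 38.3 and 59.2 CPM in A375-BIR with DMSO. The A375 libraries had 57.7, 66.95 and 50.8 CPM with dabrafenib and 27.6 CPM with DMSO. Thus every A375 dabrafenib library lay above every A375-BIR dabrafenib library and above the A375 DMSO library, while both A375-BIR groups overlapped. GCLC was higher in A375 with dabrafenib than with DMSO by 1.12 ± 0.35 on the log2 scale (adjusted p = 0.0115). It was lower in A375-BIR than in A375 under dabrafenib (-0.86 ± 0.30, adjusted p = 0.0174). Both calls rest on few reads, 9 in the shallowest A375 dabrafenib library, and both ended with DESeq2 (1.11, adjusted p = 0.0695, and -0.83, adjusted p = 0.0706) and without A375 dabrafenib replicate 2 (1.01, adjusted p = 0.0593, and -0.76, adjusted p = 0.101). The A375-BIR response of GCLC was -0.36 ± 0.27 (adjusted p = 0.611, 95% interval -0.90 to 0.19).

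GCLM and GCLC had unlike fitted changes in A375 (0.03 and 1.12) and between the lines in dabrafenib (0.13 and -0.86). They had similar ones in A375-BIR (-0.40 and -0.36) and between the lines in DMSO (0.56 and 0.61). For GCLC the last value was not called (0.61 ± 0.33, edgeR adjusted p = 0.122). No test compared these genes with each other. GCLM stood at 152, 173 and 114 CPM in A375-BIR with dabrafenib and 167, 207 and 220.1 CPM with DMSO in that line. In A375 it stood at 161, 129 and 102 CPM with dabrafenib and 133 CPM with DMSO. The A375 DMSO library fell inside the range of the A375 dabrafenib libraries (0.03 ± 0.26, adjusted p = 0.95, 95% interval -0.49 to 0.55). Under dabrafenib the lines differed by 0.13 ± 0.20 (adjusted p = 0.638, 95% interval -0.28 to 0.54). In DMSO GCLM was called higher in A375-BIR by 0.56 ± 0.24, at an adjusted p = 0.0498. That call ended under 10 of 17 alternatives, among them DESeq2 (adjusted p = 0.129) and leaving out A375-BIR DMSO replicate 2 or 3 (0.53 and 0.49). In A375-BIR, dabrafenib and DMSO libraries overlapped in 1 value each (-0.40 ± 0.18, adjusted p = 0.286).

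Of the enzymes that use glutathione, MGST1 separated the lines almost completely. MGST1 (chromosome 12, 16347142 to 16609259) encodes a membrane glutathione transferase that also reduces lipid peroxides. It held 113, 81 and 32 counts in A375-BIR with dabrafenib, or 108, 142 and 82.8 CPM, and 137, 113 and 66 counts in A375-BIR with DMSO, or 116, 114 and 112 CPM. In A375 it held 0, 0 and 1 count with dabrafenib and 0 counts in the DMSO library. MGST1 passed the filter only in A375-BIR libraries, so a difference between the lines was part of its being kept. The ratio of summed counts, A375-BIR over A375 in dabrafenib, was 125 (95% counting interval 22.2 to 4956). It rests on the 1 count in A375 dabrafenib replicate 3: without that library the level was at least 35.0-fold higher in A375-BIR (3 counts over the rest of the A375 group), and without A375 dabrafenib replicate 1 or 2 the ratio was 70.4 or 74.5. In DMSO the level was at least 60.7-fold higher in A375-BIR, taking 3 counts as the limit of the A375 DMSO library, and at least 60.03-fold to 61.1-fold without any 1 of the A375-BIR DMSO libraries. With dabrafenib and DMSO the A375-BIR levels differed by -0.03 ± 0.20 (adjusted p = 0.977, 95% interval -0.43 to 0.37), although the SD was 29.6 CPM with dabrafenib and 2.18 CPM with DMSO (n = 3 each). The genes most like MGST1 over the 10 libraries were TNFRSF10A, a TRAIL receptor gene (Pearson r = 0.998 of log2 CPM), and LAMB3, a laminin chain gene (r = 0.995), over points that fall into the 4 groups.

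GPX1 and GPX4 encode glutathione peroxidases that carry selenocysteine, GPX1 for soluble peroxides and GPX4 for lipid peroxides in membranes. GPX1 (chromosome 3, 49357171 to 49358600) stood at 105, 75.2 and 93.2 CPM in A375-BIR with dabrafenib and 122, 111 and 157 CPM with DMSO in that line. In A375 it stood at 61.9, 73.6 and 84.6 CPM with dabrafenib and at 232 CPM in the DMSO library, the highest of the 10. It fell in A375 with dabrafenib by 1.71 ± 0.25 on the log2 scale (adjusted p = 1.77e-06). In A375-BIR the difference had the same sign, without overlap of the libraries, and was not called (-0.47 ± 0.19, adjusted p = 0.213). Under dabrafenib the lines overlapped (0.38 ± 0.23, adjusted p = 0.195, 95% interval -0.10 to 0.86), and in DMSO GPX1 was lower in A375-BIR (-0.85 ± 0.22, adjusted p = 0.00146).

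GPX4 (chromosome 19, 1103926 to 1106791) stood at 81.9, 63.0 and 95.8 CPM in A375-BIR with dabrafenib and 55.1, 62.5 and 52.5 CPM in A375-BIR with DMSO. The A375 libraries had 68.1, 96.0 and 45.1 CPM with dabrafenib and 140.0 CPM with DMSO. Again the A375 DMSO library was the highest of all, and the dabrafenib groups of both lines overlapped (0.09 ± 0.24, adjusted p = 0.789, 95% interval -0.40 to 0.58). GPX4 was lower in A375 with dabrafenib than with DMSO (-0.91 ± 0.27, adjusted p = 0.00722; adjusted p = 0.0507 by DESeq2) and lower in A375-BIR than in A375 in DMSO (-1.29 ± 0.25, adjusted p = 3.82e-05). In A375-BIR its difference of 0.47 ± 0.22 was not called (adjusted p = 0.304). Both GPX1 and GPX4 calls in A375 turn on the single library with the other file stamp, and the part in them of whatever that stamp marks was not tested.

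The thioredoxin branch was led by TXNRD1 (chromosome 12, 104215779 to 104350305), which encodes cytosolic thioredoxin reductase, another selenocysteine enzyme, and the ARE matches shown above lie before both of its starts. A 3′ tag does not show which start a transcript used. TXNRD1 stood at 867, 798 and 929 CPM in A375-BIR with dabrafenib and 747, 785 and 779 CPM with DMSO in that line. In A375 it stood at 870.3, 966 and 778 CPM with dabrafenib and 370.5 CPM with DMSO. The A375 DMSO library lay below all other 9 libraries. TXNRD1 was higher in A375 with dabrafenib by 1.24 ± 0.25 (adjusted p = 0.000139) and higher in A375-BIR than in A375 in DMSO by 1.06 ± 0.24 (adjusted p = 0.00044). Under dabrafenib the lines differed by -0.02 ± 0.17 (adjusted p = 0.932, 95% interval -0.36 to 0.32), and in A375-BIR the drug and DMSO groups by 0.17 ± 0.16 (adjusted p = 0.713, 95% interval -0.16 to 0.50).

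SRXN1 (chromosome 20, 646615 to 653370), the sulfiredoxin gene whose enzyme restores over-oxidised peroxiredoxins, was near the counting limit. It held 9, 6 and 5 counts in A375-BIR with dabrafenib (8.57, 10.5 and 12.9 CPM) and 5, 4 and 3 in A375-BIR with DMSO (4.24, 4.03 and 5.08 CPM). In A375 it held 12, 6 and 7 counts with dabrafenib (24.7, 13.4 and 39.5 CPM) and 8 with DMSO (5.02 CPM). In both lines every dabrafenib library lay above every DMSO library. SRXN1 passed the filter only in 2 A375 dabrafenib libraries, so a high level in that group was part of its being tested. Its comparisons with that group are therefore no separate support. The difference was called in A375 (2.16 ± 0.64, adjusted p = 0.00735) and not in A375-BIR (1.18 ± 0.57, adjusted p = 0.342), and the difference between these responses was not called (-0.97 ± 0.90, adjusted p = 0.46). Between the lines in dabrafenib SRXN1 was not called (-1.17 ± 0.50, adjusted p = 0.0556), and it was called without A375 dabrafenib replicate 2 (-1.54, adjusted p = 0.029).

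NQO1 and HMOX1, a pair of classical NRF2 targets, moved in opposite directions in A375. NQO1 (chromosome 16, 69706996 to 69726951) encodes a reductase that detoxifies quinones. It stood at 212, 227 and 230.3 CPM in A375-BIR with dabrafenib and 164, 146 and 173 CPM in A375-BIR with DMSO. The A375 libraries had 454, 451 and 451 CPM with dabrafenib and 1022 CPM with DMSO. The 4 groups did not overlap anywhere, and their order was A375 with DMSO, A375 with dabrafenib, A375-BIR with dabrafenib and A375-BIR with DMSO. NQO1 fell in A375 with dabrafenib by 1.18 ± 0.20 (adjusted p = 1.85e-05). It was lower in A375-BIR than in A375 under dabrafenib (-1.02 ± 0.17, adjusted p = 5.18e-06) and in DMSO (-2.67 ± 0.20, adjusted p = 6.18e-14). In A375-BIR it was 0.47 ± 0.17 higher with dabrafenib and not called (adjusted p = 0.137). The responses of the lines differed by 1.65 ± 0.26 (adjusted p = 2.49e-05). SERPINE2, a protease inhibitor gene (r = 0.993), and CKB, brain creatine kinase (r = 0.985), were most like NQO1 over the 10 libraries, whose points fall into the 4 groups.

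HMOX1 (chromosome 22, 35380361 to 35394214), which encodes the inducible heme oxygenase that breaks heme down to biliverdin, carbon monoxide and iron, was high in 1 group alone. It stood at 72.4, 63.0 and 59.5 CPM in A375-BIR with dabrafenib and 101, 80.6 and 79.6 CPM with DMSO in that line. In A375 it stood at 592, 598 and 530.3 CPM with dabrafenib and 72.2 CPM with DMSO. The lowest A375 dabrafenib library thus stood above the highest of the other 7 libraries, and the A375 DMSO library lay within the range of A375-BIR with dabrafenib. HMOX1 rose in A375 with dabrafenib by 2.99 ± 0.26 (adjusted p = 2.48e-11) and was lower in A375-BIR than in A375 under dabrafenib (-3.12 ± 0.18, adjusted p = 1.62e-16). The second comparison is between libraries with 1 shared file stamp, and its value stayed between -3.23 and -3.07 when each library was left out in turn. In DMSO the lines differed by 0.28 ± 0.24 (adjusted p = 0.34, 95% interval -0.21 to 0.78). In A375-BIR the drug and DMSO groups did not overlap, at -0.41 ± 0.20 (adjusted p = 0.34). The difference between the responses was -3.40 ± 0.32 (adjusted p = 1.6e-09). MALAT1, a nuclear RNA, took 5.08% to 8.60% of counts in the same A375 dabrafenib libraries, 2.36% to 5.78% in A375-BIR with dabrafenib, 2.54% to 3.18% in A375-BIR with DMSO and 2.60% in the A375 DMSO library, and its part in the result was not tested. The genes most like HMOX1 were PPP1R12A, a myosin phosphatase subunit gene (r = 0.996), and ASPA, the aspartoacylase gene (r = 0.976). The points fall into the 4 groups here too, with 1 group high.

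SOD3 (chromosome 4, 24789912 to 24800842), which encodes the secreted superoxide dismutase of the extracellular matrix, had its counts mainly in A375. SOD3 passed the filter only in A375 libraries, so a difference in it was part of its being kept. It held 1, 0 and 0 counts in A375-BIR with dabrafenib and 0, 0 and 2 in A375-BIR with DMSO. In A375 it held 14, 8 and 2 counts with dabrafenib, or 28.9, 17.9 and 11.3 CPM, and 572 counts with DMSO, or 359 CPM. It was lower in A375 with dabrafenib than with DMSO (-4.06 ± 0.31, adjusted p = 1.76e-12), between 3 libraries and 1. The ratio of summed counts, A375 over A375-BIR, was 43.4 (95% counting interval 7.08 to 1785) in dabrafenib and 496 (137 to 4107) in DMSO. Both ratios rest on 1 A375-BIR library: without A375-BIR dabrafenib replicate 1 the level was at least 6.90-fold higher in A375 (3 counts over the rest of the A375-BIR group), and without A375-BIR DMSO replicate 3 at least 260.1-fold higher. Leaving out any other library gave ratios of 31.1 to 48.5 in dabrafenib, and of 284 and 318 in DMSO without A375-BIR DMSO replicates 1 and 2. Both A375-BIR groups are at or under 3 counts, so no fold is given between them. Most like SOD3 over the 10 libraries were ENSG00000260981, listed without another symbol (r = 0.985), and SOX9 (r = 0.979), a neural crest transcription factor gene. The genes most like GCLC were BRAP (r = 0.971) and ZNF397 (r = 0.946). For SOD3 and GCLC as well, the points fall into the 4 groups.

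The response to dabrafenib differed between the lines in 6 of the 10 genes (3 above 0, 3 below), against 22.6% of all genes tested (12.7% above, 9.87% below). The difference, A375-BIR minus A375, was below 0 for GCLC (-1.47 ± 0.44, adjusted p = 0.015), HMOX1 and TXNRD1 (-1.08 ± 0.29, adjusted p = 0.00693). It was above 0 for NQO1, GPX1 (1.23 ± 0.32, adjusted p = 0.0054) and GPX4 (1.38 ± 0.35, adjusted p = 0.00381). All 6 use the A375 DMSO library, which the A375 response and the comparison of the lines in DMSO share too. GCLM was not called (-0.43 ± 0.31, adjusted p = 0.339). Across the 10 libraries NQO1 and SOD3 were most alike among the members (r = 0.94), and NQO1 and MGST1 least (r = -0.905), over points that fall into the 4 groups.

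The counts in the lists that follow stand against the shares of all genes called: 2.46% in the A375-BIR response, 38.6% in the A375 response (17.9% higher, 20.7% lower), 42.7% between the lines in dabrafenib (22.6% higher, 20.2% lower) and 51.8% in DMSO (25.1% higher, 26.7% lower). Some genes stand in several lists, among them SQSTM1, SLC7A11, GSR, TXN, PRDX1 and FTH1, so the counts of the lists are not independent. Regulators of the pathway were read from a list of 14 genes, all tested. The shares called were 0%, 42.9%, 35.7% and 50% in that order. In A375-BIR 0 were called with dabrafenib against DMSO by edgeR and 0 by DESeq2, with 2 at an unadjusted p under 0.05 (median log2 change 0.13). In A375 4 were higher and 2 lower (median -0.18). MAFG, a small MAF partner of NRF2, stood at 206 ± 13.1 CPM with dabrafenib (n = 3) and 46.5 CPM with DMSO (n = 1), a change of 2.13 ± 0.29. NFE2L1, which encodes the related factor NRF1, rose by 1.48 ± 0.27, BACH1 rose by 1.69 ± 0.45, and MAFK, a further small MAF gene, fell by 1.45 ± 0.30. Under dabrafenib 5 regulators were lower in A375-BIR than in A375 and none was higher (median -0.09). NFE2L2, the NRF2 gene itself, averaged 200.4 ± 49.4 CPM in the A375-BIR libraries and 411 ± 11.7 CPM in those of A375 (-1.05 ± 0.18, adjusted p = 8.42e-06, n = 3 each, edgeR). MAFG (-0.93 ± 0.20), NFE2L1 (-0.84 ± 0.20) and CREBBP, a coactivator gene (-0.97 ± 0.23), were lower too. In DMSO 2 were higher and 5 lower in A375-BIR (median -0.23). There KEAP1 was lower (-1.54 ± 0.41), MAFF, of the same small MAF family, was lower (-1.19 ± 0.28), and BACH1 was higher (1.59 ± 0.41), as was MAFG (0.98 ± 0.28). Without A375-BIR DMSO replicate 2, 4 were called there. NFE2L2 in the other comparisons is given because of its role, after its values were seen: it rose in A375 with dabrafenib (0.78 ± 0.24, adjusted p = 0.00864), was not called between the lines in DMSO (-0.27 ± 0.22) and had a change of -0.002 ± 0.17 in A375-BIR.

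Further NRF2 targets were 35 genes, of which 27 were tested. The shares called were 11.1% in A375-BIR, 44.4% in A375, 66.7% between the lines in dabrafenib and 81.5% in DMSO, against 2.46%, 38.6%, 42.7% and 51.8% of all genes. In A375-BIR 3 rose with dabrafenib and none fell (median -0.07): ABCC3, an efflux transporter (2.52 ± 0.38), FTH1, the ferritin heavy chain (1.21 ± 0.18), and SLC7A11, the cystine importer that feeds glutathione synthesis (1.00 ± 0.19). FTH1 stood at 1142 ± 285 CPM with dabrafenib and 496 ± 47.6 CPM with DMSO (n = 3 each). DESeq2 gave no adjusted p for ABCC3. In A375 4 rose and 8 fell (median -0.08), where 17.9% of all genes were higher and 20.7% lower. SLC7A11 rose there too (1.51 ± 0.24), as did TXN, thioredoxin itself (1.33 ± 0.27), and ME1, malic enzyme (1.49 ± 0.32), while PGD of the pentose phosphate pathway fell by 1.65 ± 0.34. Under dabrafenib 5 were higher and 13 lower in A375-BIR than in A375 (median -0.48). The lower ones included PIR (-3.13 ± 0.31), which encodes the nuclear protein pirin, and SLC7A11 (-1.28 ± 0.18), and FTH1 was higher (1.22 ± 0.19). OSGIN1, an oxidative stress growth inhibitor, was lower too (-4.00 ± 0.51), with 5 counts over the A375-BIR dabrafenib group. In DMSO 4 were higher and 18 lower (median -0.78). PIR (-2.86 ± 0.30) and OSGIN1 (-3.73 ± 0.41, 11 counts over the A375-BIR DMSO group) were lower, and TXN was higher (2.42 ± 0.26).

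**Figure D3:**
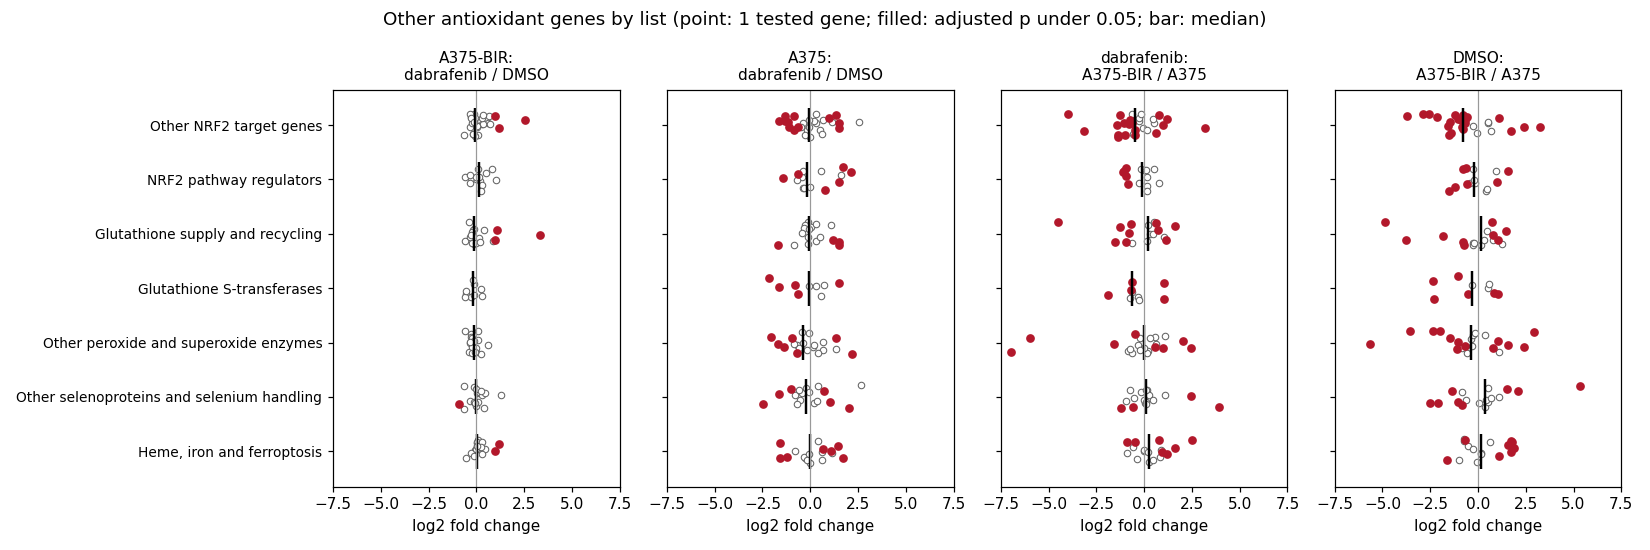
Fitted log2 change of every tested gene in 7 lists of other antioxidant genes, in the 4 comparisons; filled points passed adjusted p under 0.05 and the bar marks each list's median; for genes with few or no counts in a group the fitted value is no bound. Points spread to both sides of 0 in the comparisons with A375, and few are filled in the A375-BIR response, where the medians lie between -0.18 and 0.13.

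Glutathione supply and recycling was read from 23 genes, 17 of them tested. In A375-BIR 3 rose with dabrafenib and none fell (median -0.12): SLC7A11, its partner chain gene SLC3A2 (1.10 ± 0.25) and CHAC1, which encodes a glutathione-degrading enzyme and held 3 counts over the DMSO group. The call of SLC3A2 ended without A375-BIR DMSO replicate 1 (1.02) or 2 (1.05), and that of CHAC1 without A375-BIR dabrafenib replicate 1. In A375 3 rose and 1 fell (median -0.05). GSS, which completes glutathione synthesis, fell by 1.66 ± 0.32, and GLRX2, a mitochondrial glutaredoxin gene, rose by 1.49 ± 0.36. Between the lines in dabrafenib 4 were higher and 6 lower in A375-BIR (median 0.22), with SLC1A4, a neutral amino acid transporter gene, at 37.7 ± 17.9 CPM in the A375-BIR libraries and 869.7 ± 60.8 CPM in those of A375 (-4.53 ± 0.23, n = 3 each). GSS was higher in A375-BIR there (1.14 ± 0.30), a call that ended without A375-BIR dabrafenib replicate 1 (0.76). In DMSO 4 were higher and 5 lower (median 0.14), SLC1A4 again among the lower (-4.86 ± 0.27). Without A375 dabrafenib replicate 1, 6 were called between the lines in dabrafenib.

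Glutathione transferases other than MGST1 were 17 on the list, 15 matched and 9 tested. In A375-BIR with dabrafenib 0 were called by edgeR and 0 by DESeq2, with 1 at an unadjusted p under 0.05 (median -0.18). Without A375-BIR dabrafenib replicate 2 there was 1 call. In A375 1 rose and 4 fell (median -0.06). GSTP1, the main cytosolic transferase, stood at 366 ± 27.2 CPM with dabrafenib and 1144 CPM with DMSO (-1.65 ± 0.22), GSTM4 fell by 2.15 ± 0.33, and MGST3, a microsomal relative of MGST1, rose by 1.49 ± 0.28. Under dabrafenib 2 were higher and 3 lower in A375-BIR (median -0.62). GSTP1 (1.04 ± 0.18) and GSTO1 (1.04 ± 0.25), an omega class enzyme, were higher and GSTM3 was lower (-1.91 ± 0.30). In DMSO 2 were higher and 4 lower (median -0.31), GSTM3 (-2.28 ± 0.26) and GSTM4 (-2.38 ± 0.28) among the lower. Without A375 dabrafenib replicate 2, 3 were called in each of the A375 response and the comparison under dabrafenib. The GSTM genes are near copies of each other, so their counts are uncertain where reads could not be placed.

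Of 26 other peroxide and superoxide enzymes and their partners, 21 were tested. In A375-BIR 0 were called by edgeR and 0 by DESeq2, with 2 at an unadjusted p under 0.05 (median -0.13). Without A375-BIR dabrafenib replicate 2 there were 2 calls in A375-BIR and 13 between the lines in dabrafenib. In A375 2 rose and 5 fell (median -0.39). SESN3, a sestrin gene, rose by 2.16 ± 0.29, and TXN2, mitochondrial thioredoxin, fell by 1.69 ± 0.24. Under dabrafenib 4 were higher and 4 lower in A375-BIR (median -0.03). SESN3 averaged 3.88 ± 1.33 CPM in the A375-BIR libraries and 256 ± 29.7 CPM in those of A375 (-5.95 ± 0.34, n = 3 each). PRDX3, the mitochondrial peroxiredoxin, was higher in A375-BIR (2.48 ± 0.43), as was the methionine sulfoxide reductase gene MSRB3 (2.03 ± 0.33). In DMSO 5 were higher and 8 lower (median -0.36), with SESN2, another sestrin gene, lower (-2.37 ± 0.26).

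Of 21 other selenoprotein and selenium genes 17 were tested. In A375-BIR 1 was lower and none higher with dabrafenib (median -0.01): SELENOK, of the endoplasmic reticulum (-0.90 ± 0.21), a call that ended without A375-BIR DMSO replicate 1 (-0.92) or 3 (-0.83). In A375 3 rose and 3 fell (median -0.25), with SELENON lower (-1.03 ± 0.29; not called by DESeq2). Between the lines 2 were higher and 2 lower in dabrafenib (median 0.09), SEPHS1, a selenophosphate synthetase relative, among the higher (2.43 ± 0.39). In DMSO 3 were higher and 5 lower in A375-BIR (median 0.35), SEPHS1 (1.496 ± 0.35) among the higher. Without A375 dabrafenib replicate 1 or 2 there were 3 and 2 calls in A375, and without A375-BIR dabrafenib replicate 3 there were 2 between the lines in dabrafenib.

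Of 19 heme, iron and ferroptosis genes 17 were tested. In A375-BIR FTH1 and TFRC, the transferrin receptor gene (0.98 ± 0.19), rose and none fell (median 0.05). In A375 4 rose and 3 fell (median -0.03). HMOX2, the constitutive heme oxygenase gene, fell by 1.24 ± 0.28 in A375 with dabrafenib, while HMOX1 rose as given above. SLC11A2, an iron importer gene, rose by 1.06 ± 0.26. Under dabrafenib 5 were higher and 2 lower in A375-BIR (median 0.23), among the higher ACO1, which encodes an iron-sensing aconitase (2.48 ± 0.28), ACSL4, which loads membranes with oxidisable lipids (1.59 ± 0.26), and TFRC (0.96 ± 0.22). In DMSO 6 were higher and 2 lower (median 0.16), with ACSL4 (1.89 ± 0.30) and ACO1 (1.72 ± 0.29) among the higher.

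As a check of the drug, 9 of 10 ERK output genes were tested. With dabrafenib 1 was higher and 7 lower in A375 (median -2.35), and 0 were higher and 1 lower in A375-BIR (median -0.36). The lower gene in A375-BIR was ETV4 (-0.86 ± 0.23), a call that ended with DESeq2 (adjusted p = 0.194), without any 1 of the A375-BIR DMSO replicates 1 (-0.80), 2 (-0.96) and 3 (-0.83), without A375-BIR dabrafenib replicate 2 (-0.69) and without A375 dabrafenib replicate 1 or 2 (-0.86 each). In A375 ETV4 fell by 4.62 ± 0.42.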

How the data were processed

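Raw read counts per gene were deposited by the authors, 1 file per library. Reads had been mapped to hg38 per the submitters' processing notes, from QuantSeq 3′ FWD libraries read single-end per the labels' protocols; no aligner or counter is given in the sources used here. Rows that name no gene were left out of library sizes: reads assigned to genes were 20.4% to 31.1% of all rows' counts, and not uniquely placed reads 40.0% to 52.5%. Of 12 libraries, 10 list human genes and were used; the 2 that list mouse genes were left out. Symbols were found for 32807 of 33694 identifiers. edgeR 4.0.16 in R 4.3.3 was run on all 10 libraries with TMM scaling, its default filter (minimum count 10) and 6 residual degrees of freedom; p-values were Benjamini-Hochberg adjusted over 10236 genes. Because the smallest group is 1 library, the filter kept a gene that passed its minimum in 1 library only. Without the A375 DMSO library 8736 genes were kept. The shares of all genes called can therefore include genes kept through that library alone. The SE is the log2 change over the root of F. The lone A375 DMSO library is assumed to vary like the other groups, which did not vary alike. Between pairs of replicates, chi-square per degree of freedom was 3.78 to 4.11 in A375-BIR with dabrafenib and 1.24 to 1.61 in A375-BIR with DMSO. In A375 with dabrafenib it was 1.07 to 2.06. Labels call the libraries biological replicates. Where a group held at most 3 counts, a ratio of summed counts with an exact Clopper-Pearson interval is given, covering counting error only. The method was tested on simulated data. Alternatives were DESeq2 1.42.0, other scaling and filters, the compared groups only, a replicate block, and leaving out each library. Named list genes are the up to 4 with the smallest p per list and comparison, except 1 that is not reported here, and genes most like a member are the 2 with the highest correlation over the libraries. The members and lists were chosen with earlier results of these data known, so they are no independent evidence.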

Additional observations from a re-analysis of the deposited data

Results flagged for a closer look

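The difference between the dabrafenib responses of A375-BIR and A375 passed edgeR's adjusted threshold in 6 genes, on the log2 scale: GCLC (-1.47), NQO1 (1.65), HMOX1 (-3.40), TXNRD1 (-1.08), GPX1 (1.23) and GPX4 (1.38). Each of these values includes the single A375 DMSO library, whose file stamp differs from that of the other 9. In these values whatever the stamp marks cannot be told apart from the group. For GCLC the call ended with DESeq2 (-1.48, adjusted p = 0.0761) and without A375 dabrafenib replicate 2 (-1.37, adjusted p = 0.0538).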

How the results depend on the processing

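The number of members called stayed within 1.5 times its value under every alternative run: 0 for the A375-BIR response, 6 to 8 for the A375 response, 6 to 8 between the lines in DMSO, 4 to 5 between them in dabrafenib and 5 to 6 for the difference between responses. Of 774 alternative values of 46 single-gene results, 742 kept direction and side of the threshold, 17 lost a call, 2 gained one and 13 changed sign, 0 of these among called results. The sign changes were all near 0: GCLM in A375 without a filter (-0.054) and with A375 dabrafenib replicates 1 and 2 summed (-0.014), TXNRD1 between the lines in dabrafenib under the same settings (0.013 each), and, at a mean count of at least 50, MGST1 in A375-BIR (0.0080) and GPX4 between the lines in dabrafenib (-0.021). Leaving out each library in turn gave -0.20 to 0.10 for MGST1 in A375-BIR, -0.16 to 0.13 for GCLM in A375, and between the lines in dabrafenib -0.092 to 0.055 for TXNRD1 and -0.046 to 0.38 for GPX4. GCLC between the lines in DMSO was called when those groups were fitted alone (0.59, adjusted p = 0.0429). The cause was not tested. Without the A375 DMSO library no comparison with that group could be made. Summing was chosen after seeing the data, because A375 dabrafenib replicates 1 and 2 differed little beyond counting noise (chi-square per degree of freedom 1.07 over 9275 genes).

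Over all genes, the A375-BIR response had 252 calls, against 106 with DESeq2, 137 at a mean count of at least 50, 125 with those groups alone, 558 without A375-BIR dabrafenib replicate 2, and 106, 140 and 107 without A375-BIR DMSO replicates 1, 2 and 3. DESeq2 called 2485 in place of 3948 genes in A375 and 1153 in place of 2313 for the difference; the filter at a mean count of 50, which tests fewer genes, left 1669, 1895, 1764 and 1133 in the A375 response, between the lines in DMSO, between them in dabrafenib, and for the difference. That filter moved the median of the genes by 0.13 in the A375 response and by -0.11 between the lines in dabrafenib. With DESeq2 list calls were 3 glutathione transferases, 1 selenoprotein gene and 3 heme and iron genes in A375, 14 further NRF2 targets and 4 regulators between the lines in DMSO, and 6 supply genes and 3 transferases between them in dabrafenib. Deviations of same-numbered libraries from their group means had correlations of -0.12 to 0.11, and those of differently numbered libraries -0.11 to 0.14. These come from the A375-BIR response and the lines in dabrafenib. They cannot decide whether the numbers mark libraries prepared together. Among the members' calls the replicate block ended only that of GCLM between the lines in DMSO (0.57, adjusted p = 0.0878). Among the list genes named or ranked for naming it ended 3 A375 calls, LANCL1 (1.12), GSTO1 (-0.79) and SELENOO (-1.77), and it left 3296 calls over all genes in A375. List calls under the block were 3 transferases, 3 selenoprotein genes and 4 heme and iron genes in A375, and 14 further NRF2 targets between the lines in DMSO. Depth limits SRXN1 and SOD3, which held under 15 counts in each library other than SOD3 in A375 with DMSO.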
